A study of Mus musculus with 2 samples.

Results

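Genes of the mitochondrial inner membrane were described in long-read RNA sequencing of the mouse adrenal gland: the prohibitins Phb and Phb2, the prohibitin relative Stoml2, the membrane proteases Afg3l2 and Yme1l1, the fusion GTPase Opa1, and Immt and Chchd3 of the cristae junction. They were taken by gene name from the deposited transcript tables, and all 8 had reads in both libraries, of 18111 annotated genes with a read in either. The genes were chosen by their names with the reads per transcript model already known. The read share of an unannotated Phb2 form was among the values they were chosen by, so it is given as a description with no test of its size. The tissue came from B6CASTF1/J mice, F1 hybrids of a C57BL/6 and a CAST parent, female and 14 days old, with no treatment and no other group. There were 2 libraries, biological replicates 1 and 2, each made from its own tissue sample. Since 3 females are named for the replicate 1 tissue but not for the replicate 2 tissue, replicate 1 may be a pool of animals, and the labels do not settle this.

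The inner mitochondrial membrane folds into cristae and carries the respiratory chain. Phb and Phb2 proteins assemble with each other into ring-shaped complexes in this membrane, which associate with the protease formed by Afg3l2 and its relatives. Stoml2 protein binds prohibitins and cardiolipin. Opa1 is a dynamin-like GTPase that fuses inner membranes, and Yme1l1, a protease facing the intermembrane space, cuts it into short forms. Immt (also called Mic60) and Chchd3 (Mic19) belong to the MICOS complex, which holds the neck of each crista. In the adrenal cortex the first enzyme of steroid synthesis, Cyp11a1, sits on the inner membrane.

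Replicate 1 held 1143111 reads and replicate 2 held 991731, of which 1065570 and 946553 fell in annotated genes and are the base of all values in CPM, a gene's reads scaled to 1000000 gene reads of its library. A gene with 0 reads had a limit of 2.82 CPM in replicate 1 and 3.17 CPM in replicate 2, set by 3 counts. The tissue label was checked against marker genes: the 7 adrenal cortex markers summed to 54179 CPM in replicate 1 and 24213 CPM in replicate 2, and the 5 medulla markers to 11562 and 4449 CPM in the same order of libraries. Replicate 2 stood apart in its markers of other tissues. The 6 hepatocyte markers summed to 682 CPM in replicate 1 and 74621 CPM in replicate 2, and the 6 skeletal muscle markers to 61.0 CPM in replicate 1, where Myh1 and Tnnt3 were at 0, and 1707 CPM in replicate 2. The 5 fat markers summed to 6736 CPM in replicate 1 and 7741 CPM in replicate 2. Liver and muscle also use the 8 genes, and the part of these cells in the values below was not tested. In such bulk tissue, fewer cells of a type and less RNA per cell cannot be told apart.

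Phb2 (chr6:124712336-124716950, mm10, plus strand) was found almost wholly in a form that the annotation does not list. The annotated coding transcript Phb2-201 has an exon of 6 nucleotides (chr6:124716425-124716430, mm10, plus strand) before its last exon, and the leading chain of introns joins the exons on either side without it. The stretch is shown because it is the whole difference between them. Capitals mark the 6-nucleotide exon, and 30 bases before it and 25 after it are given 5′ to 3′ from the GENCODE M21 transcript.
Phb2-201: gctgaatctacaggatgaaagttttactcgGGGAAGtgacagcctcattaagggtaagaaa
Leading chain: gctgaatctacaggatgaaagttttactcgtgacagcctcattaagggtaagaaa

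The 6 bases have the length of 2 codons, and the reading frame continues to the same stop: the coding sequence has 299 codons before its stop with the exon and 297 without it. The leading chain held 377 reads in replicate 1 and 300 in replicate 2. Among reads assigned to a whole chain of introns it made up 97.2% of 388 reads in replicate 1 (95% interval 95.0 to 98.6%) and 98.0% of 306 reads in replicate 2 (95.8 to 99.3%). All such intervals are exact Clopper-Pearson intervals and cover counting error only, since the files do not tell copies of a molecule apart. The intervals of the 2 libraries overlap.

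All 8 introns of the leading chain are in the annotation, so TALON, the program whose classes the models carry, placed it among the NIC models, which join known splice sites in an unlisted combination. Its long last intron, which passes over the small exon, is annotated in the retained-intron transcript Phb2-205. Reads were counted whose models either included the 6-nucleotide exon as an exon of its own or joined its neighbours. Of these, 0 of 395 in replicate 1 and 0 of 309 in replicate 2 included it. By counting alone this allows a share of up to 0.759% in replicate 1 and 0.971% in replicate 2. The limit is on exons of the models and not on the molecules, since no exon this short was included in any gene counted below. A further 1 read in replicate 1 and 2 reads in replicate 2, of 396 and 311 reads across these sites in the same order of libraries, held its 6 bases within a longer exon and are outside that limit. No read in either library was given to an annotated Phb2 transcript with a full match.

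The remaining Phb2 chains were rare. A second chain also lacked the small exon and kept the intron before the exon of 130 nucleotides (chr6:124714830-124714959), with 6 reads in replicate 1 and 2 in replicate 2. The 130-nucleotide exon itself was included by 383 of 383 spliced reads in replicate 1 and 306 of 306 in replicate 2, although 1 annotated transcript skips it. A further 6 chains had 1 read each, and 3 of these are the reads that held the 6 bases. In 1 read of each library an exon began at the start of the small exon and ran on through the next intron into the last exon. The third read, in replicate 2, had an exon of 40 nucleotides that ended at the end of the small exon.

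**Figure D1:**
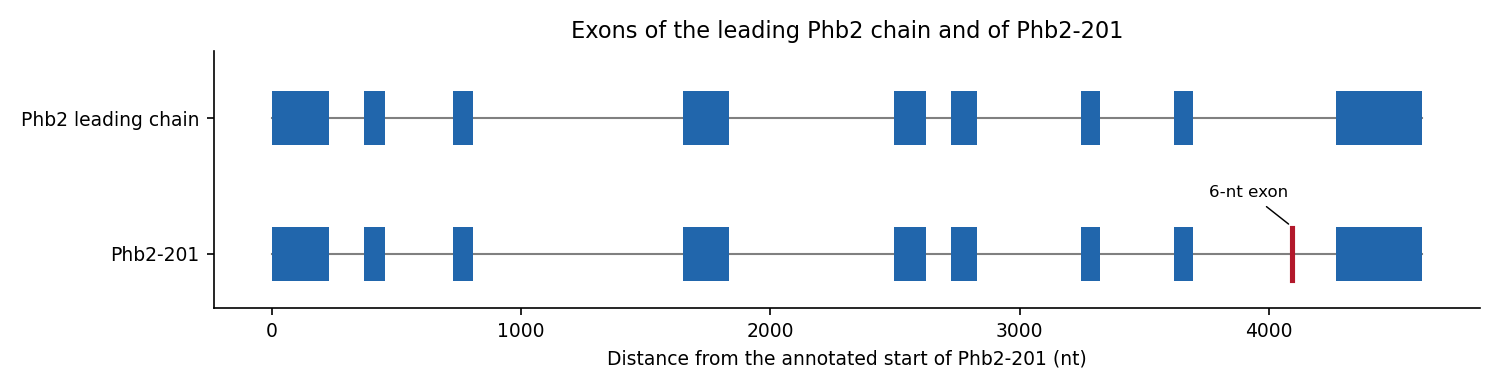
Exons (boxes) and introns (lines) of the leading Phb2 chain, above, and of the annotated Phb2-201, below, by distance in nucleotides from the annotated start. The 9 exons of the leading chain are those of Phb2-201 without the 6-nucleotide exon, whose red mark is drawn wider than scale so that it can be seen; the outer ends of the leading chain are drawn at those of Phb2-201.

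Very short exons were missing as exons of their own from the models far beyond Phb2. The count was made after the Phb2 form had been seen. The exons counted were internal exons of annotated coding transcripts, translated or not, spanned by at least 20 reads over both libraries. A read that included the exon was found for 0 of 37 exons of 1 to 6 nucleotides, the Phb2 exon among them. For exons of 7 to 9 nucleotides it was found for 0 of 23. The number was 7 of 60 for exons of 10 to 15 nucleotides, 275 of 355 (77.5%) for 16 to 27 nucleotides and 5540 of 5701 (97.2%) for 28 to 60 nucleotides. In 8 genes, 8 exons of at most 9 nucleotides are spliced over by no annotated coding transcript of their gene. The small Phb2 exon is among them, and 0 of these 8 had an included read. Over all models, 20 of 1699705 reads lay on a model with an internal exon of at most 9 nucleotides. Whether the sequenced Phb2 molecules carry the 6 bases was not tested, because the reads themselves were not used here.

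**Figure D2:**
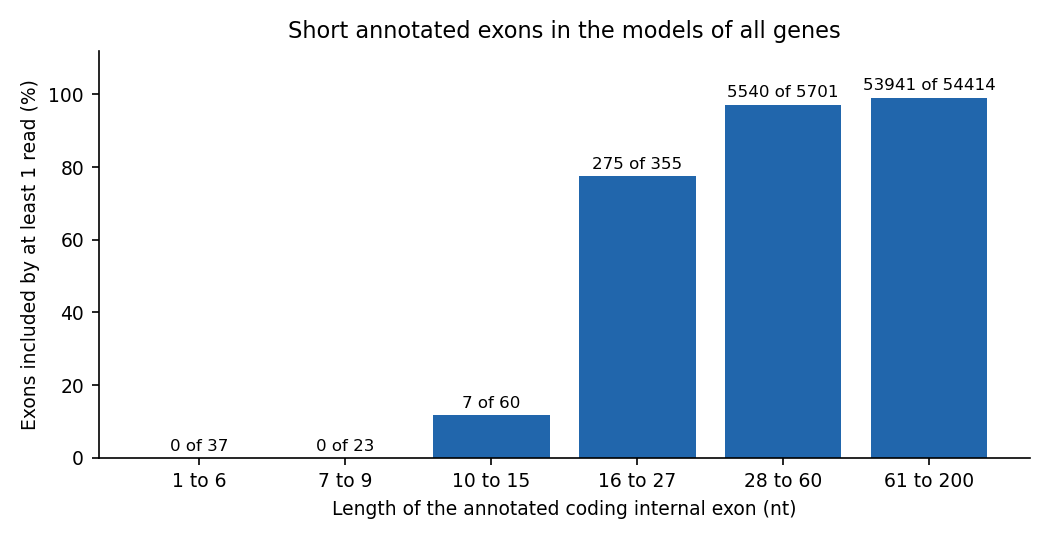
Share of internal exons of annotated coding transcripts, translated or not (vertical axis, in percent), that at least 1 read included, by exon length in nucleotides. Exons were included or spliced over by at least 20 reads in both libraries together. No exon up to 9 nucleotides was included, 7 of 60 were from 10 to 15 nucleotides, and 97.2% or more were from 28 nucleotides upwards.

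An unannotated leading chain was uncommon among other genes. Of 2692 genes with at least 50 whole-chain reads in each library, 58 (2.15%) were led by an unannotated chain in both, and Phb2 and Opa1 were among them. In 56 of the 58 the same chain led in both libraries, in 11 no read matched an annotated transcript, and in 8 the leading chain held over 90% of whole-chain reads in both. Phb2 met each of these conditions. In 3 of the 56, Phb2, Mpc1 and Sept7, the chain equalled a coding transcript without its internal exons of at most 15 nucleotides.

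Phb was read almost entirely as its annotated form. Phb lies at chr11:95666957-95680773 on the plus strand, and its transcript Phb-204, which encodes a protein of 272 codons, held 628 of 649 whole-chain reads in replicate 1 (96.8%) and 481 of 494 in replicate 2 (97.4%). A chain that differed by a single splice site moved 3 nucleotides had 5 reads in replicate 1 and 4 in replicate 2. Another, with an added exon, had 4 reads in replicate 1 and 1 in replicate 2.

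Stoml2 (chr4:43027690-43031710, minus strand) was likewise led by an annotated transcript, Stoml2-201, with 289 of 311 whole-chain reads in replicate 1 (92.9%) and 209 of 221 in replicate 2 (94.6%). A chain without the coding exon of 145 nucleotides, a length that is not a multiple of 3, was read 4 times in replicate 1 and in 1 read in replicate 2. Of 24 whole chains of Stoml2 found in either library, 17 had 1 read.

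The proteases had simple patterns as well. Afg3l2 is a subunit of the protease whose active side faces the matrix, and Afg3l2-201 held 173 of 191 whole-chain reads in replicate 1 (90.6%) and 190 of 202 in replicate 2 (94.1%). A chain with a splice site moved by 60 nucleotides had 4 reads in each library. Yme1l1 (chr2:23156369-23199260, plus strand) was read as Yme1l1-201 in 81 of 87 whole-chain reads in replicate 1 (93.1%) and 64 of 66 in replicate 2 (97.0%), and no other Yme1l1 chain was seen in both libraries. Yme1l1 reads lay on partial chains in 5 of 92 cases (5.43%) in replicate 1 and 13 of 79 (16.5%) in replicate 2. Their 95% intervals, 1.79 to 12.2% and 9.06 to 26.5%, overlap in part. Such an overlap does not show that the shares are alike, and the difference was not tested.

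Opa1 was spread over 4 forms, which differ by 2 exons that can each be used or skipped. These exons lie in the early part of the gene (chr16:29579334-29654884, plus strand). The first has 54 nucleotides (chr16:29588823-29588876) and the second 111 nucleotides (chr16:29597586-29597696), and both lengths are multiples of 3. In human OPA1, alternative exons in this stretch are known to change which sites the membrane proteases can cut. The exons are printed in capitals with 12 bases of the neighbouring exons on each side, from the GENCODE M21 transcripts Opa1-201 and Opa1-207, because all 4 forms are combinations of them.
Opa1 54-nucleotide exon: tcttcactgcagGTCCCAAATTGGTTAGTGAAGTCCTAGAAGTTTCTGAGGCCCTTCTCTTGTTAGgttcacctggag
Opa1 111-nucleotide exon: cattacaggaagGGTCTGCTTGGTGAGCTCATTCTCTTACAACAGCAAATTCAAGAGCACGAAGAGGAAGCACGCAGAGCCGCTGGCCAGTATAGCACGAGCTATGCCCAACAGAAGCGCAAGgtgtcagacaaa

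The 54-nucleotide exon was in 21 of 69 spanning reads in replicate 1 (30.4%, 95% interval 19.9 to 42.7%) and in 33 of 118 in replicate 2 (28.0%, 20.1 to 37.0%). The 111-nucleotide exon was in 39 of 69 reads in replicate 1 (56.5%, 44.0 to 68.4%) and in 62 of 118 in replicate 2 (52.5%, 43.1 to 61.8%). Over both libraries the mean use was 29.2% for the shorter exon and 54.5% for the longer one. For each exon the libraries lay well inside each other's intervals, and in both libraries the longer exon was used more than the shorter.

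Because the spanning reads cover both positions, the combinations could be counted. Reads with the 111-nucleotide exon alone were most frequent in both libraries, 28 of 69 in replicate 1 (40.6%) and 45 of 118 in replicate 2 (38.1%). Reads with neither exon followed, 20 in replicate 1 (29.0%) and 40 in replicate 2 (33.9%). Both exons together were in 11 reads in replicate 1 (15.9%) and 17 in replicate 2 (14.4%), and the 54-nucleotide exon alone in 10 reads in replicate 1 (14.5%) and 16 in replicate 2 (13.6%). The longer exon was in 11 of the 21 reads with the shorter exon and in 28 of the 48 without it in replicate 1. In replicate 2 it was in 17 of 33 reads with the shorter exon and in 45 of 85 without it.

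Of these 4 forms the annotation holds 2 as complete transcripts that were read. Opa1-206, with neither exon and 960 codons, had 19 of 69 whole-chain reads in replicate 1 (27.5%) and 36 of 115 in replicate 2 (31.3%). Opa1-201, with the 54-nucleotide exon and 978 codons, took 9 reads in replicate 1 (13.0%) and 14 in replicate 2 (12.2%). The leading chain carried the 111-nucleotide exon, with 21 reads in replicate 1 (30.4%) and 40 in replicate 2 (34.8%). It has all 28 introns of the annotated Opa1-207 and a further annotated intron past the point at which Opa1-207 ends, so no annotated transcript has its whole chain. A chain with both exons had 10 reads in replicate 1 (14.5%) and 16 in replicate 2 (13.9%), and each of its 30 introns is annotated.

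**Figure D3:**
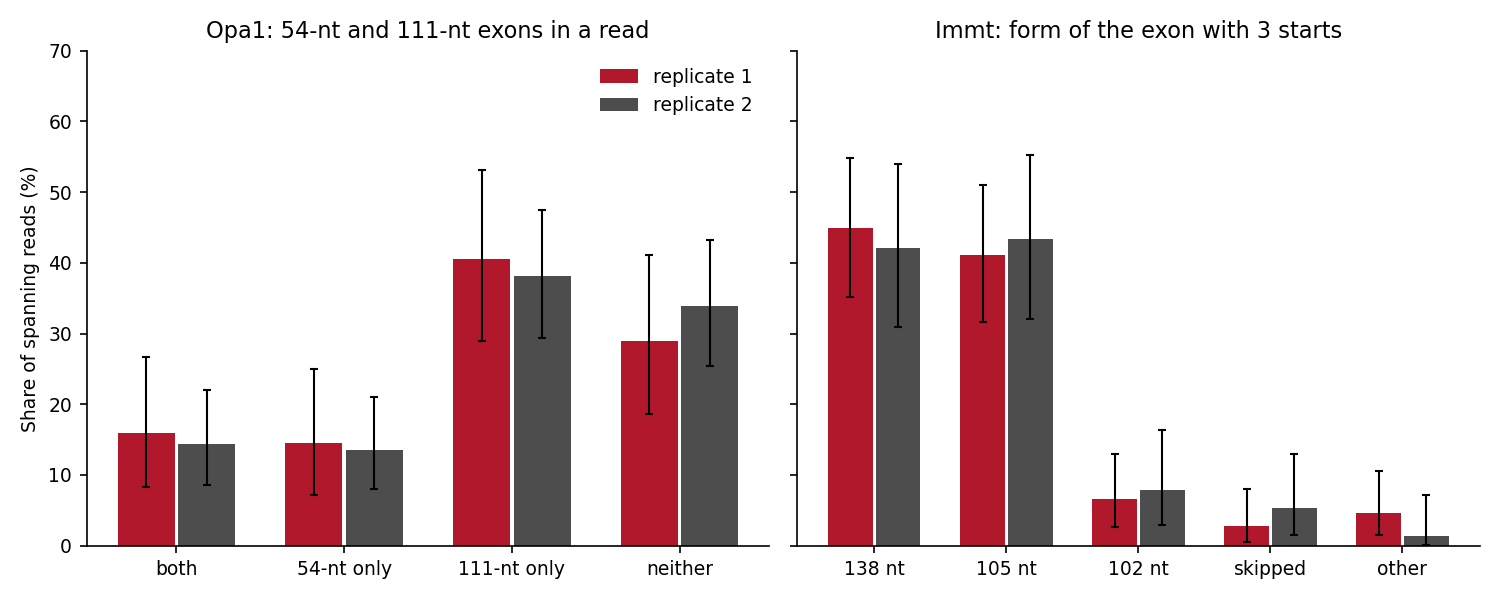
Share of spanning reads (vertical axes, in percent) with each combination of the 54- and 111-nucleotide exons of Opa1, left, and with each form of the Immt exon that has 3 alternative starts, right, in replicate 1 (red) and replicate 2 (grey); bars are single-library values and lines are exact 95% binomial intervals. Opa1 reads with the 111-nucleotide exon alone were most frequent in both libraries, and the 138- and 105-nucleotide forms of the Immt exon were close to each other.

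Immt, the core subunit of MICOS (chr6:71831331-71877388, plus strand), was the most divided of the 8 genes, with 29 whole chains found and 9 seen in both libraries. No chain held more than 24.7% of its whole-chain reads. The annotated Immt-203 had 17 of 107 reads in replicate 1 (15.9%) and 19 of 77 in replicate 2 (24.7%). The leading unannotated chain had 26 reads in replicate 1 (24.3%) and 15 in replicate 2 (19.5%), so the order of these chains was not the same in the libraries, and their intervals overlap. The next 2 unannotated chains had 18 and 15 reads in replicate 1 and 14 and 12 reads in replicate 2.

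The Immt chains differ from each other in 2 main places, and from 5 annotated transcripts in another. The first place is an exon of 138 nucleotides with alternative starts 33 and 36 nucleotides further in. The stretch around them is shown because the bases AG that end an intron can be read there directly. It is taken from Immt-201, and the capitals mark the bases just before the second start and, in the last 3 of them, those between the second and the third.
Immt exon with 3 starts: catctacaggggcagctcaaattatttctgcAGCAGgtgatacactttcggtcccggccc

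The 138-nucleotide form was in 48 of 107 spanning reads in replicate 1 (44.9%, 35.2 to 54.8%) and in 32 of 76 in replicate 2 (42.1%, 30.9 to 54.0%). The 105-nucleotide form was in 44 reads in replicate 1 (41.1%) and 33 in replicate 2 (43.4%). The 102-nucleotide form was in 7 reads in replicate 1 (6.54%) and 6 in replicate 2 (7.89%). The exon was skipped in 3 reads in replicate 1 and 4 in replicate 2.

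The second place is the next exon, of 96 nucleotides (chr6:71853173-71853268), which was in 55 of 102 reads in replicate 1 (53.9%, 43.8 to 63.8%) and in 38 of 72 in replicate 2 (52.8%, 40.7 to 64.7%). It was found with either of the main forms of the exon before it. With the 138-nucleotide form it was used in 29 of 48 reads in replicate 1 and 20 of 32 in replicate 2, and with the 105-nucleotide form in 21 of 44 reads in replicate 1 and 14 of 33 in replicate 2. Its sequence is given whole.
Immt 96-nucleotide exon: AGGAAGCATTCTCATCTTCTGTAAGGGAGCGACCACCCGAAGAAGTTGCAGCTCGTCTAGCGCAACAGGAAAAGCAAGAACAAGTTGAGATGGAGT

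All Immt reads spanning it lacked an annotated coding exon of 15 nucleotides (chr6:71866726-71866740), shown in capitals between 24 bases on each side. The exon was in 0 of 107 spanning reads in replicate 1 and 0 of 76 in replicate 2. By counting alone this allows a share of up to 2.80% in replicate 1 and 3.95% in replicate 2. This limit too is on exons of the models, and whether the molecules carry the 15 bases was not tested. The coding sequence of Immt-201 has 757 codons with it and 752 without it, with the same stop.
Immt-201: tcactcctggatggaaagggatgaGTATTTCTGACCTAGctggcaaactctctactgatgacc

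The leading unannotated chain of Immt and 2 further named chains equal Immt-201, Immt-202 or Immt-205 without this exon. Its length falls in the range of 10 to 15 nucleotides, in which 7 of 60 annotated exons of all genes had an included read. Chchd3 also has an annotated coding exon of 15 nucleotides (chr6:32893392-32893406), in 1 of its transcripts, and it was in 0 of 204 spanning reads in replicate 1 and 0 of 241 in replicate 2. With the 6-nucleotide Phb2 exon above, these are the 3 internal exons of at most 15 nucleotides in annotated coding transcripts of the 8 genes, and none of the 3 was an exon of its own in any read.

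Chchd3, the MICOS subunit bound to Immt (chr6:32790976-33060260, minus strand), was otherwise read in its annotated form. Chchd3-201, of 227 codons, held 190 of 205 whole-chain reads in replicate 1 (92.7%) and 226 of 241 in replicate 2 (93.8%). A chain with a splice site moved by 9 nucleotides was seen in 3 reads of replicate 1 and 2 of replicate 2.

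The share of reads on models that match an annotated transcript in full divided the 8 genes into those with mostly matching reads and Phb2, Opa1 and Immt. The leading Phb2 chain and some of the Immt chains differ from coding transcripts only by the absent exon of 6 or 15 nucleotides. Whether the molecules carry those bases was not tested, so the low shares describe the models. It was 0 of 403 reads in replicate 1 and 0 of 313 in replicate 2 for Phb2. For Opa1 it was 32.9% of 85 reads in replicate 1 (95% interval 23.1 to 44.0%) and 40.3% of 124 reads in replicate 2 (31.6 to 49.5%). For Immt it was 15.3% of 118 reads in replicate 1 (9.30 to 23.0%) and 23.3% of 86 reads in replicate 2 (14.8 to 33.6%). In the other 5 genes it lay between 82.3% and 92.0% over both libraries, against 76.1% of the reads of all annotated genes in replicate 1 and 78.2% in replicate 2.

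**Figure D4:**
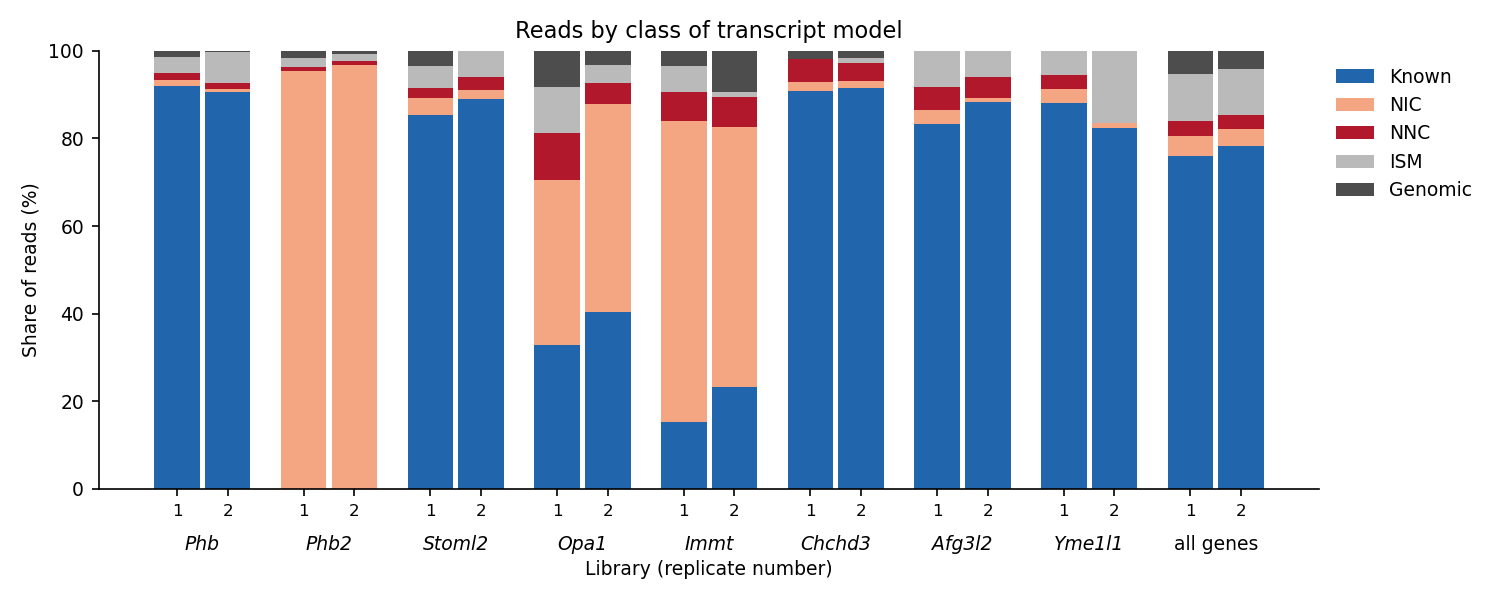
Share of reads (vertical axis, in percent) of each gene, and of all annotated genes, on models of each TALON class, with replicate 1 left of replicate 2. Known matches an annotated transcript, NIC joins known splice sites in an unlisted combination, NNC has an unlisted splice site, ISM holds part of an annotated chain and Genomic matches no splicing; Phb2 has no Known reads, while Opa1 and Immt are split between Known and NIC.

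The make-up of forms was then compared between the libraries, and no member passed the test. The comparison took whole-chain transcripts of at least 5 summed reads, in genes with at least 20 such reads in each library, by Fisher's exact test or a permutation test of 100000 draws, with Benjamini-Hochberg adjustment over 2709 genes. Of these, 55 (2.03%) passed an adjusted p of 0.05. Of the 8 genes 7 could be tested, all but Yme1l1, and 0 were called, with adjusted p from 0.934 to 1 in this permutation or exact test. The unadjusted p ranged from 0.406 to 1, so 0 of the 7 had an unadjusted p under 0.05. For Phb2 the 2 transcripts compared were the leading and the second chain. The leading chain's share was among the values the genes were chosen by, so no conclusion on that form is drawn from its result. These tests compare the reads of these libraries, not the animals behind them.

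Read numbers were compared as well. Each gene's reads were compared by a two-sided exact binomial test given the totals of gene reads, adjusted by Benjamini-Hochberg over the 9211 genes with at least 20 summed reads. Of the 8 genes 3 passed, against 2436 (26.4%) of all genes tested; 1 was higher in replicate 1, against 17.9% of all genes, and 2 were lower in replicate 1, against 8.58%. Of all calls 67.6% were higher in replicate 1 with this scaling, 37.0% with TMM factors and 7.59% with spike-in totals. The log2 ratios set replicate 1 over replicate 2 after 0.5 was added to each count, with an SE from counting alone. Their median was 0.12 over the 8 genes and 0.28 over all genes tested, so a ratio near 0.28 is that of the middle gene. Levels were not compared between genes, since how the number of long reads depends on transcript length was not tested.

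Opa1 had 85 reads in replicate 1 and 124 in replicate 2, or 79.8 CPM and 131 CPM. Its log2 ratio was −0.71 ± 0.20 (adjusted p = 0.00257, exact binomial test), and it was lower in replicate 1. Chchd3 had 209 reads in replicate 1 and 248 in replicate 2, or 196 and 262 CPM, with a log2 ratio of −0.42 ± 0.14 (adjusted p = 0.0119, exact binomial test), also lower in replicate 1. Both passed as lower in 6 of 7 alternatives, which include every other scaling of the libraries, with log2 ratios of −1.30 to −0.71 for Opa1 and −1.004 to −0.380 for Chchd3. The exception was the edgeR exact test that allows replicates to vary by a coefficient of variation of 0.2, with adjusted p of 0.660 for Opa1 and 0.821 for Chchd3. Over the 7 alternatives the lowest adjusted p was 1.31e-09 for Opa1 and 2.50e-12 for Chchd3, both by the exact binomial test with spike-in totals. In that setting the median log2 ratio of all genes was itself −0.31.

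Stoml2 had 340 reads in replicate 1 and 235 in replicate 2, or 319 and 248 CPM, and a log2 ratio of 0.36 ± 0.12 (adjusted p = 0.0148, exact binomial test). This ratio is close to the median of all genes, and the call held in 2 of 7 alternatives, with adjusted p from 0.0273 to 0.844. It was lost with edgeR's TMM factors (0.11), DESeq2 size factors (0.12), without the hepatocyte and muscle marker genes (0.25) and with spike-in totals, where the sign turned (−0.23). The edgeR exact test with an assumed coefficient of variation of 0.2 did not call it either (adjusted p = 0.844).

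The prohibitins had like ratios. Phb had 684 reads in replicate 1 and 533 in replicate 2, or 642 and 563 CPM (603 ± 55.7, mean ± SD, n = 2), with a log2 ratio of 0.19 ± 0.08 (adjusted p = 0.0778 by the exact binomial test). Phb2 had 403 reads in replicate 1 and 313 in replicate 2, or 378 and 331 CPM (354 ± 33.6, mean ± SD, n = 2), with a log2 ratio of 0.19 ± 0.11 (adjusted p = 0.192 by the exact binomial test). Neither passed the test, both lay below the median of all genes, and both signs turned with TMM, DESeq2 or spike-in scaling. With spike-in totals both passed as lower in replicate 1, Phb at −0.40 (adjusted p = 2.21e-05) and Phb2 at −0.39 (adjusted p = 0.00216, exact binomial tests). With only whole-chain models counted, Phb passed in the opposite direction, as higher in replicate 1 (0.25, adjusted p = 0.0205 by the exact binomial test). In the other 5 alternatives for Phb and 6 for Phb2 neither passed, with adjusted p up to 0.955.

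Immt, Afg3l2 and Yme1l1 did not pass either. Immt had 118 reads in replicate 1 and 86 in replicate 2, or 111 and 90.9 CPM, with a log2 ratio of 0.28 ± 0.20. Afg3l2 had 208 reads in replicate 1 and 215 in replicate 2, or 195 and 227 CPM, with a log2 ratio of −0.22 ± 0.14. It passed as lower in replicate 1 in 3 of 7 alternatives, with TMM (−0.47), DESeq2 (−0.46) and spike-in (−0.81) scaling. Yme1l1 had 92 reads in replicate 1 and 79 in replicate 2, or 86.3 and 83.5 CPM, with a log2 ratio of 0.05 ± 0.22.

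**Figure D5:**
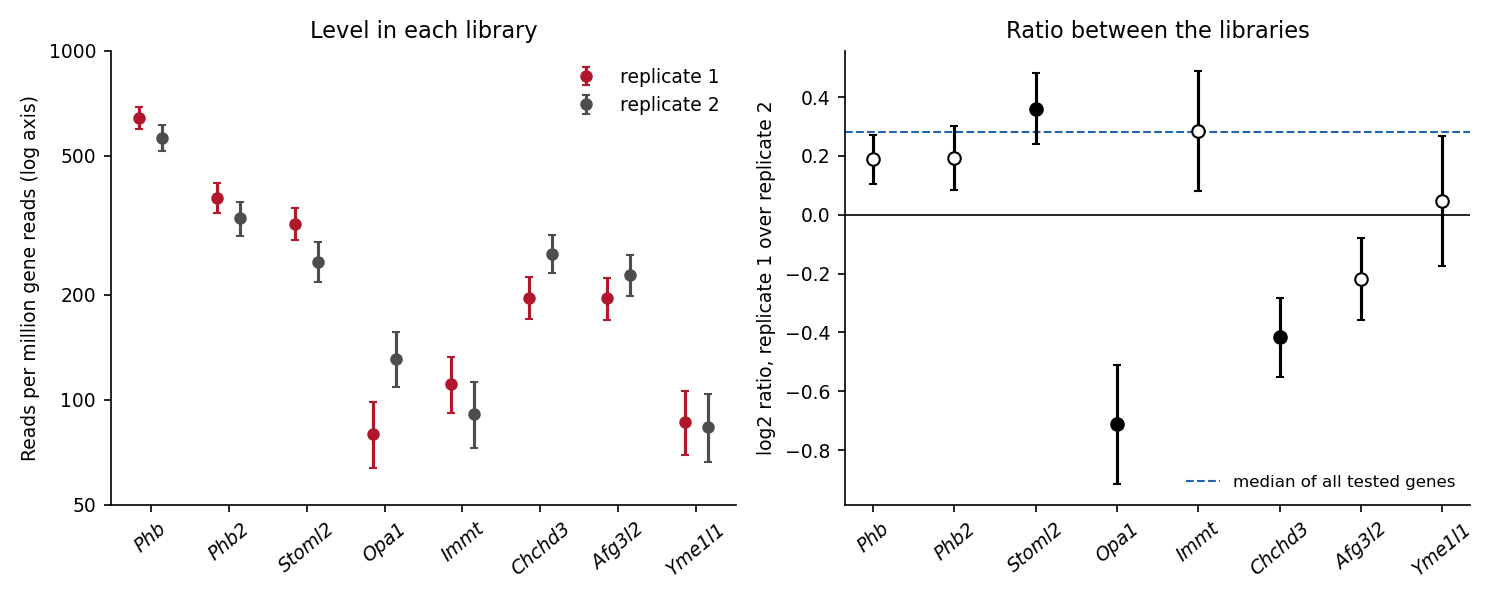
Left, CPM of each gene in replicate 1 (red) and replicate 2 (grey) on a log axis, with exact 95% counting intervals. Right, log2 ratio of replicate 1 over replicate 2 with its counting SE, where filled points passed an adjusted p of 0.05, the solid line is 0 and the dashed line is the median of all genes tested, 0.28; Opa1 and Chchd3 lie farthest below both lines.

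Other genes of the same pathways were counted from lists chosen with earlier results of these data known. Leaving the 8 genes out, 14 of 55 tested list genes were higher in replicate 1 and 4 were lower, with a median log2 ratio of 0.21. Over all 9211 tested genes 17.9% were higher and 8.58% lower, with a median of 0.28. With TMM factors 5 list genes were higher and 8 lower, against 643 and 1093 of the 9211 genes. With spike-in totals 1 was higher and 22 were lower, against 170 and 2071 of the 9211. The counts below therefore hold for scaling by gene reads, with 17.9% and 8.58% as the shares over all genes. Of 11 tested MICOS and bridging-complex genes, 2 were higher in replicate 1 and 1, Chchd3, was lower. The higher ones were Minos1, the MICOS subunit also called Mic10, with 505 CPM in replicate 1 and 407 CPM in replicate 2, and Dnajc11, with 210 CPM in replicate 1 and 160 CPM in replicate 2, and neither was called higher with TMM factors. Of 13 tested genes of the inner membrane proteases and their partners, 2 were higher and 0 lower in replicate 1. Of 11 tested genes of the TIM23 import complex, 2 were higher and 0 lower in replicate 1.

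The soluble proteases moved in both directions. Of 5 tested, 4 were higher in replicate 1, among them Lonp1, the main protease of the matrix, with 1106 CPM in replicate 1 and 679 CPM in replicate 2. The fifth, Clpx, the unfoldase of the ClpXP protease, was lower in replicate 1, with 212 CPM there and 380 CPM in replicate 2. Of 13 tested genes of the list of prohibitins and cardiolipin handling, 3 were higher and 1 was lower in replicate 1. Among the higher ones were the chaperone Hspd1, at 1901 CPM in replicate 1 against 1215 CPM in replicate 2, and its partner Hspe1. Hspe1 was at 868 CPM in replicate 1 against 442 CPM in replicate 2. Phb, Phb2 and Crls1, also in this list, were not called. Of 10 tested fusion and fission genes, 2 were higher and 3 lower in replicate 1. Mfn2, which fuses outer membranes, was lower in replicate 1 like Opa1, with 156 CPM in replicate 1 and 264 CPM in replicate 2. Mtfr1l of the same list was higher in replicate 1, with 270 CPM there and 207 CPM in replicate 2. Mff was not called, with 139 CPM in replicate 1 and 123 CPM in replicate 2. Lonp1, Clpx, Hspd1, Hspe1 and Mfn2 kept their direction and call with TMM and DESeq2 factors and without the hepatocyte and muscle marker genes, while Lonp1 and Hspd1 were not called with spike-in totals. These settings change only the scaling or the genes counted. The edgeR exact test with an assumed coefficient of variation of 0.2, which called 513 of 9211 genes, was not looked at for these list genes. The part of the hepatocyte and muscle cells in these differences was not tested.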

How the data were processed

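Long-read RNA libraries of mouse adrenal gland were analysed from the deposited tables. Per the file headers, the authors' tables hold whole read counts per transcript model of 2 libraries, neither scaled nor pooled, with models on mm10 built on GENCODE M21. For the aligner, the TALON version and read filters, nothing is given in the sources used here. Depth was 1065570 and 946553 gene reads, and intervals cover counting error only. The labels do not say that the tissue samples came from different litters, and p-values measure only the spread expected from counting.

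Gene reads summed all model classes. Models were matched between libraries by gene and intron chain, and a chain classed Known, NIC or NNC in either library was counted in both. Sequences were read from GENCODE M21 transcripts. The genes and lists were chosen with earlier results of these data known. Named transcripts are those of at least 5 summed reads seen in both libraries, at most 6 per gene. Named list genes come from the 3 of highest mean CPM per list. Tests were checked on simulated data. Python 3.11.15, scipy 1.17.1, R 4.3.3, edgeR 4.0.16 and DESeq2 1.42.0 were used, the last for size factors only. Alternatives are given in the closing section.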

Additional observations from a re-analysis of the deposited data

Results flagged for a closer look

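Reads of unannotated loci on the strand opposite to a member were above 3 counts in both libraries at Chchd3 and at Yme1l1, which no comparison above uses. At Chchd3 there were 13 such reads in replicate 1 and 8 in replicate 2, of which 0 and 2 were spliced in the same order of libraries. At Yme1l1 there were 16 in replicate 1 and 5 in replicate 2, and each of them lay on a model of 1 exon. How the strand of such reads was set is not given in the sources used here.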

How the results depend on the processing

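No paired analysis was possible because the series has 1 group of 2 libraries. The count of 2436 genes called fell to 513 in the edgeR exact test with an assumed coefficient of variation of 0.2, and it was between 1731 and 2300 under the other scalings and filters. The median log2 ratio of all genes, 0.28, was 0.03 with TMM factors, 0.04 with DESeq2 size factors, −0.31 with spike-in totals and 0.17 without the hepatocyte and muscle marker genes, an alternative chosen after seeing the data. The share of calls higher in replicate 1, 67.6%, was 37.0% with TMM, 37.9% with DESeq2 factors, 7.59% with spike-in totals, 54.6% without those markers and 13.1% in the edgeR exact test. Log2 ratios changed sign with TMM for Phb (−0.060), Phb2 (−0.056) and Yme1l1 (−0.20), with DESeq2 factors for Phb (−0.055), Phb2 (−0.051) and Yme1l1 (−0.20), with spike-in totals for Phb (−0.40), Phb2 (−0.39), Stoml2 (−0.23), Immt (−0.30) and Yme1l1 (−0.54), and without the markers for Yme1l1 (−0.066). These shifts come from the scaling factors themselves. The isoform test called 55 genes, 45 with transcripts of at least 2 reads and 54 with at least 10. The mean Phb2 share of 97.6% was 94.7% over all Phb2 reads, 95.8% over reads across the differing sites, and 98.4% with sites within 10 nucleotides taken as the same. The 111-nucleotide Opa1 exon was at 0% among Known models, which hold no complete transcript with it. Over reads on spliced models the fully matching share was 92.3% for Phb and 93.2% for Chchd3. Leaving out a replicate gave 97.2 to 98.0% for the Phb2 chain, 28.0 to 30.4% and 52.5 to 56.5% for the Opa1 exons. Adding partial chains to a named transcript was not run, because their rows name none. Depth limits Opa1, Immt and Yme1l1 most, with 79 to 124 reads a library.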
